A study of Homo sapiens with 6 samples.

Results

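The antioxidant and redox defence genes are 40 genes chosen by name: the superoxide dismutases and catalase, glutathione peroxidases, peroxiredoxins, the thioredoxin and glutaredoxin systems, the enzymes that make, recycle and use glutathione, the heme and quinone enzymes, the NRF2 and KEAP1 regulator pair, sulfinyl and methionine repair enzymes, and the ferritin subunits. They are 40 of the 58735 genes in the expression table. The rule chooses them by name, from a list drawn up with earlier results of these data known. RNA sequencing was performed in the established multiple myeloma line MM.1S, of human origin, with 3 Control libraries from cells given a non-targeting siRNA and 3 PRMT1 KD libraries from cells given siRNA against PRMT1, a protein arginine methyltransferase. Both groups were transiently transfected, so that the control cells carried the same transfection as the knockdown cells. The methods of the study give 100 nM siRNA and collection at 72 h for its knockdown experiments, without saying which PRMT1 siRNA was sequenced. The study also measured reactive oxygen species (ROS) in PRMT1 KD cells, and the comparison asks how the transcripts of the enzymes that remove ROS stood in the same cell line.

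Cells remove ROS in relays. Superoxide dismutases turn superoxide into hydrogen peroxide, which catalase, the glutathione peroxidases and the peroxiredoxins remove. Glutathione and thioredoxin return the glutathione peroxidases and the peroxiredoxins to their reduced form at the cost of NADPH. The transcription factor NRF2, encoded by NFE2L2, drives many of these genes through the antioxidant response element, and KEAP1 holds NRF2 for degradation when oxidants are few. Myeloma cells are secretory plasma cells, and folding of immunoglobulin in the endoplasmic reticulum is itself a source of hydrogen peroxide.

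PRMT1 was measured at 61.7, 62.8 and 58.9 FPKM (fragments per kilobase of gene and per fixed number of fragments) in Control and at 13.3, 14.0 and 12.5 FPKM in PRMT1 KD, or 21.7% of the Control mean (log2 fold change -2.13, limma adjusted p = 2.77e-05). The libraries held 14439217 to 16465026 reads on genes, and PRMT1 KD replicate 2 was the shallowest. Of 12 plasma cell markers, 10 reached 1 FPKM in every library, with CD27 at 0.660 FPKM in its lowest library and FCRL5 under 0.0450 FPKM. The summed plasma cell markers were at 1409 to 1488 FPKM in Control and at 1394 to 1559 FPKM in PRMT1 KD. Single markers differed within this sum. SLAMF7 was at 37.8, 39.0 and 37.1 FPKM in Control and 23.4, 22.9 and 25.1 FPKM in PRMT1 KD. XBP1, PRDM1 and FCRL5 were also lower in every PRMT1 KD library than in any Control library, and MZB1 and CD38 were higher. Markers of monocytes summed to at most 0.146 FPKM, of erythroid cells to at most 0.218 FPKM, and of stromal and endothelial cells to at most 0.351 FPKM. The T cell list came to 35.9 to 39.4 FPKM in Control and 39.9 to 42.6 FPKM in PRMT1 KD, nearly all of it CD3E, with CD8A and IL7R at 0 in every library. The epithelial list came to 20.9 to 23.7 FPKM in Control and 20.1 to 20.8 FPKM in PRMT1 KD, nearly all of it KRT8, with KRT19 at 0.

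Short stretches of sequence show what several of these genes have in common. The selenoproteins GPX1, GPX4, TXNRD1 and TXNRD2 carry selenocysteine at their active site, which is written in the mRNA as an in-frame TGA codon. The 27 bases around this codon, taken from the GENCODE release 29 transcripts on GRCh38, are written 5′ to 3′ on the gene's strand with the codon in capitals. The codons lie in coding exons at chr3:49358132-49358134 (GPX1, minus strand), chr19:1105403-1105405 (GPX4, plus strand), chr12:104348413-104348415 (TXNRD1, plus strand) and chr22:19877111-19877113 (TXNRD2, minus strand). For GPX4 the codon is annotated at 4 positions over 8 transcripts, and 1 of these positions is given. The other genes have 1 position each.
GPX1: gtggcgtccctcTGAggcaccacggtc
GPX4: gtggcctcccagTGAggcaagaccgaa
TXNRD1: caggctggctgcTGAggttaagcccca
TXNRD2: gtgacaggctgcTGAgggtaagcgcca
In the reductases a glycine codon and the stop codon follow at once, whereas in the peroxidases the coding sequence goes on.

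The letters of the antioxidant response element were searched next, since it is the site through which NRF2 acts. The letters TGACNNNGC were searched on both strands in the RefSeq promoter windows of GRCh38.p14, which run from 250 bases before to 50 after each gene start. Windows were read for 29 of the 40 genes, and SOD1, PRDX1, PRDX6, TXN2, GLRX3, GSR, GSS, MGST2, HMOX1, MSRA and FTH1 were not read. The letters were found in 13.3% of all 35116 promoter windows and in at least 1 window of 4 of the 29 genes, namely GCLM, GSTP1, TXNRD1 and KEAP1. The 29 genes had 43 windows in all, so the share of windows and the count of genes are unlike measures. The GSTP1 match also holds the AP-1 motif TGACTCA. The matches are printed on the gene's strand with the motif in capitals, written as its reverse complement where it lies on the other strand. The GCLM match is at chr1:93909446-93909474 (gene on the minus strand), the GSTP1 match at chr11:67583736-67583764 (plus strand), the one of 3 TXNRD1 matches with the shortest distance to a gene start at chr12:104215761-104215789 (plus strand), and the KEAP1 matches at chr19:10502807-10502835 and chr19:10502784-10502812 (minus strand).
GCLM: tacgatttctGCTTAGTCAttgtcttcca
GSTP1: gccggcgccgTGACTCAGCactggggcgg
TXNRD1: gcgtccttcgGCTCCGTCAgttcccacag
KEAP1, upstream match: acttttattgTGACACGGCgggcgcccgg
KEAP1, downstream match: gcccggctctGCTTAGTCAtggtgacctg
A match to these letters is a description of the window and not a binding site.

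The iron-responsive element, a hairpin at the start of ferritin mRNAs that iron regulatory proteins hold when iron is low, was searched as the letters CAGTGNTTG on the gene's strand only. These letters were in 0.709% of all promoter windows and in at least 1 window of FTL and of GPX1 among the genes read. Only the letters were matched, and whether either stretch folds into the hairpin was not tested. The FTL match starts 38 bases after the gene start, within chr19:48965337-48965358 on the plus strand, and the GPX1 match 29 bases after it, within chr3:49358306-49358334 on the minus strand.
FTL: cttgcttcaaCAGTGTTTGgac
GPX1: cctccccttaCAGTGCTTGttcggggcgc

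Expression of the 40 genes spanned a wide range. The symbols matched 41 rows of the table, because SOD2 has a second row with 1 to 3 reads per library, which was left aside. A mean of at least 1 FPKM over the 6 libraries was reached by 33 genes, which were tested, and 7 genes stayed under it. The highest was the ferritin light chain FTL, at 1070 to 1317 FPKM. FTH1, PRDX5 and TXN followed at 167 to 269 FPKM, and SOD1, GPX4, PRDX2, PRDX3, PRDX4 and PRDX6 stood between 49.3 and 93.1 FPKM. The lowest genes tested were SRXN1, NQO2, GCLC, GLRX2, MGST2, SOD2 and TXNRD2, all at 1.46 to 3.86 FPKM.

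**Figure D1:**
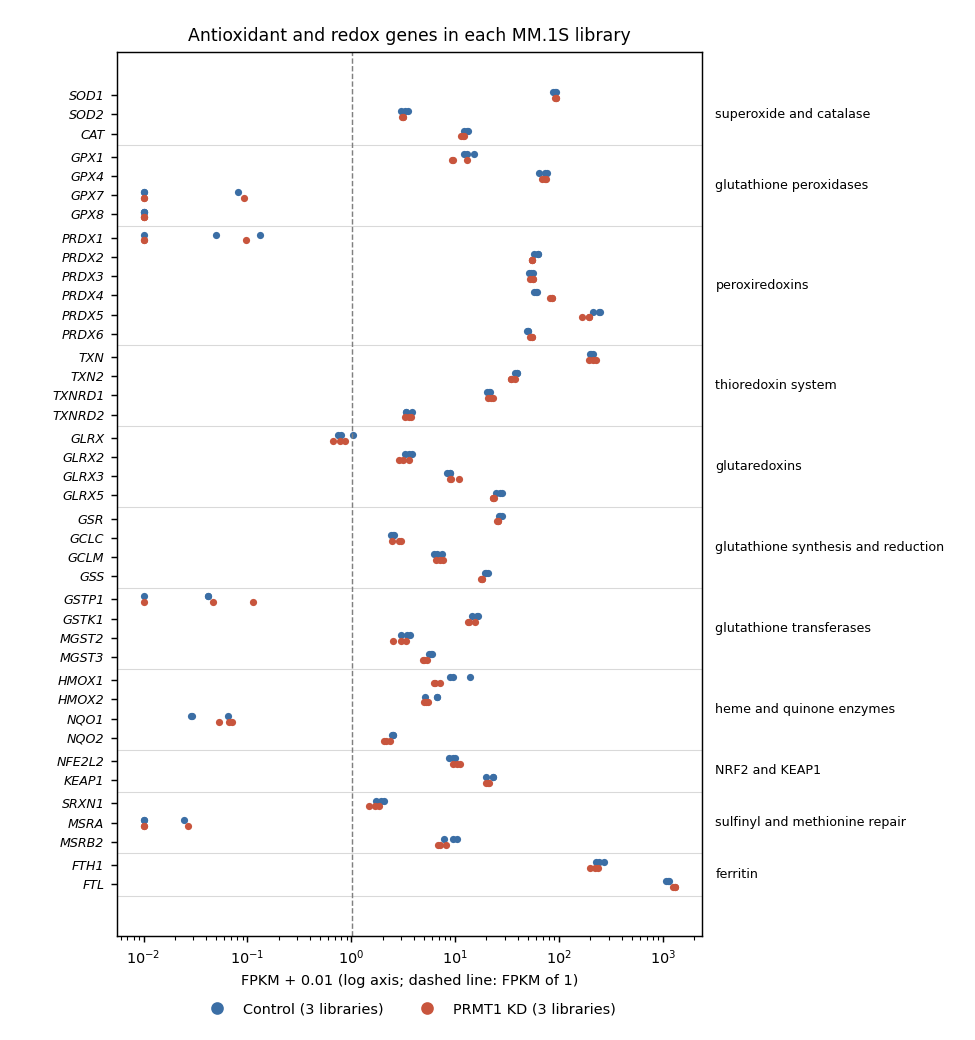
Level of each of the 40 genes in the 6 MM.1S libraries, in FPKM plus 0.01 on a log axis, grouped by role. Each point is 1 library, blue for Control and red for PRMT1 KD, and the dashed line marks 1 FPKM. FTL is highest at 1070 to 1317 FPKM, 7 genes lie under a mean of 1 FPKM, and the colours lie close together for most genes.

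Of the 7 genes under 1 FPKM, GLRX alone had more than a few reads. GLRX, the cytosolic glutaredoxin, was at 1.03, 0.781 and 0.735 FPKM in Control and 0.772, 0.651 and 0.857 FPKM in PRMT1 KD. The quinone reductase NQO1, a widely used readout of NRF2 activity, had 3, 1 and 1 reads in Control and 3, 2 and 3 reads in PRMT1 KD. The glutathione transferase GSTP1 had 1, 0 and 1 reads against 0, 1 and 3 reads. PRDX1, a cytosolic peroxiredoxin found in most cells, had 0, 3 and 1 reads against 0, 0 and 2 reads, while AKR1A1, its neighbour on chromosome 1, was at 19.2 to 20.2 FPKM. A PRDX1 pseudogene held a mean of 12.8 reads beside 1.00 for PRDX1, and whether PRDX1 reads were lost in alignment or counting was not tested. The endoplasmic reticulum peroxidase GPX7 had 2 reads in 1 library of each group, the methionine sulfoxide reductase MSRA had 1 read in 1 library of each group, and GPX8, the other endoplasmic reticulum member of its family, was listed at 0 in all 6 libraries. No fold change is given for these genes, since both groups were under the level tested.

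Among the 33 genes tested with limma, 1 passed an adjusted p of 0.05 (Benjamini-Hochberg over 13585 genes), where 2.05% of all genes tested did so. This gene was PRDX4, which rose. At an unadjusted p under 0.05 there were 11 of the 33 genes, or 33.3%, beside 19.5% of all genes tested. Of these, 3 were higher in PRMT1 KD (10.1% of all genes) and 8 were lower (9.47% of all genes). The 3 libraries of each group did not overlap for 13 of the 33 genes, 4 higher and 9 lower, beside 25.9% of all genes tested. The log2 fold change was below 0 for 20 of the 33 genes, or 60.6%, beside 47.4% of all genes, with a median of -0.094 against 0.0095. Differences are given as PRMT1 KD minus Control on the log2(FPKM + 1) scale, which understates changes in low genes. In these bulk libraries a change in the share of cells expressing a gene and a change in RNA per cell cannot be told apart.

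**Figure D2:**
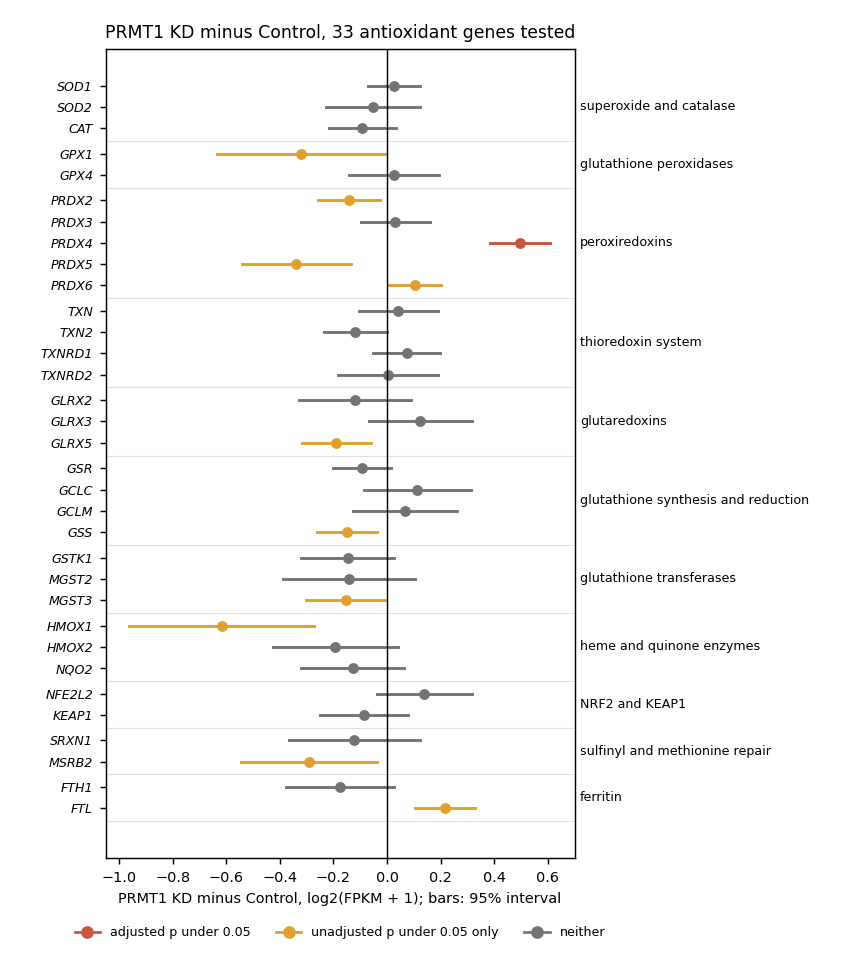
Difference between PRMT1 KD and Control for the 33 genes tested, on the log2(FPKM + 1) scale, with 95% intervals from limma and genes grouped by role. Red marks an adjusted p under 0.05, which is PRDX4 alone at 0.50, yellow an unadjusted p under 0.05 only, which is 10 further genes, and grey the rest.

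The peroxiredoxins use a reactive cysteine to reduce peroxides and differed in both directions. Of the 5 tested, 4 had groups that did not overlap, 2 higher and 2 lower, beside 25.9% of all genes tested. PRDX4 (ENSG00000123131, chrX:23664262-23686399, plus strand) encodes the peroxiredoxin of the endoplasmic reticulum, where it consumes the peroxide made during disulfide formation. It was at 59.8, 61.8 and 57.3 FPKM in Control and at 81.5, 86.2 and 85.8 FPKM in PRMT1 KD. Every PRMT1 KD library was above every Control library, and the means of 59.6 ± 2.23 and 84.5 ± 2.65 FPKM (SD, n = 3 each) put PRMT1 KD at 142% of Control. The log2 fold change was 0.50 (SE 0.0467, 95% interval 0.39 to 0.61), with a limma adjusted p of 0.0121 and an exact permutation p of 0.1, the smallest that 3 against 3 libraries allow. Without Control replicate 1 the limma adjusted p was 0.0931 at a log2 fold change of 0.50, and without PRMT1 KD replicate 2 it was 0.0722 at 0.48. In these fits the genes called in all fell from 279 to 13 and 16, so the loss of the call was not particular to PRDX4. An ordinary linear model, which borrows no spread from other genes, gave an adjusted p of 0.0628.

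PRDX5 (ENSG00000126432, chr11:64318088-64321811, plus strand), found in mitochondria, peroxisomes and cytosol, was the most abundant peroxiredoxin. Its level was 242, 249 and 211 FPKM in Control and 196, 192 and 167 FPKM in PRMT1 KD. The groups did not overlap, with PRMT1 KD at 79.0% of Control (234 ± 20.1 against 185 ± 15.9 FPKM, SD, n = 3 each). The log2 fold change of -0.34 (SE 0.0855, 95% interval -0.54 to -0.14) did not pass the adjusted threshold in limma, with an unadjusted p of 0.00551 and an adjusted p of 0.0995. The cytosolic PRDX2 stood at 62.9, 62.8 and 57.3 FPKM against 54.9, 55.4 and 55.2 FPKM, lower in every PRMT1 KD library. Its log2 fold change was -0.14 with an adjusted p of 0.175 in limma, and its PRMT1 KD values had an SD of 0.242 FPKM. HOOK2, which overlaps PRDX2 on the same strand, had a mean of 435 reads beside 1934 for PRDX2.

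PRDX6, which is reduced by glutathione and also acts on phospholipids, was at 50.4, 49.3 and 50.3 FPKM in Control and 55.3, 52.1 and 54.2 FPKM in PRMT1 KD. The groups did not overlap, and the log2 fold change of 0.11 had an adjusted p of 0.224 in limma. PRDX3, the peroxiredoxin of the mitochondrial matrix, was at 51.1 to 56.7 FPKM in Control and 52.4 to 56.3 FPKM in PRMT1 KD, with a 95% interval for the log2 fold change of -0.097 to 0.16. Added together, the peroxiredoxins, with PRDX1 adding next to nothing for the few reads given above, came to 458 ± 26.1 FPKM in Control and 433 ± 13.1 FPKM in PRMT1 KD (SD, n = 3 each, exact permutation p = 0.3). The make-up of this sum was then examined, a measure chosen after the values were seen that holds for PRDX1 as listed. PRDX4 made up 12.8%, 12.9% and 13.3% of peroxiredoxin FPKM in Control and 18.5%, 19.5% and 20.5% in PRMT1 KD. The share of PRDX5 was 51.9%, 51.9% and 49.2% in Control and 44.5%, 43.5% and 39.8% in PRMT1 KD. Both shares separated the groups without overlap, at an exact permutation p of 0.1 for each.

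**Figure D3:**
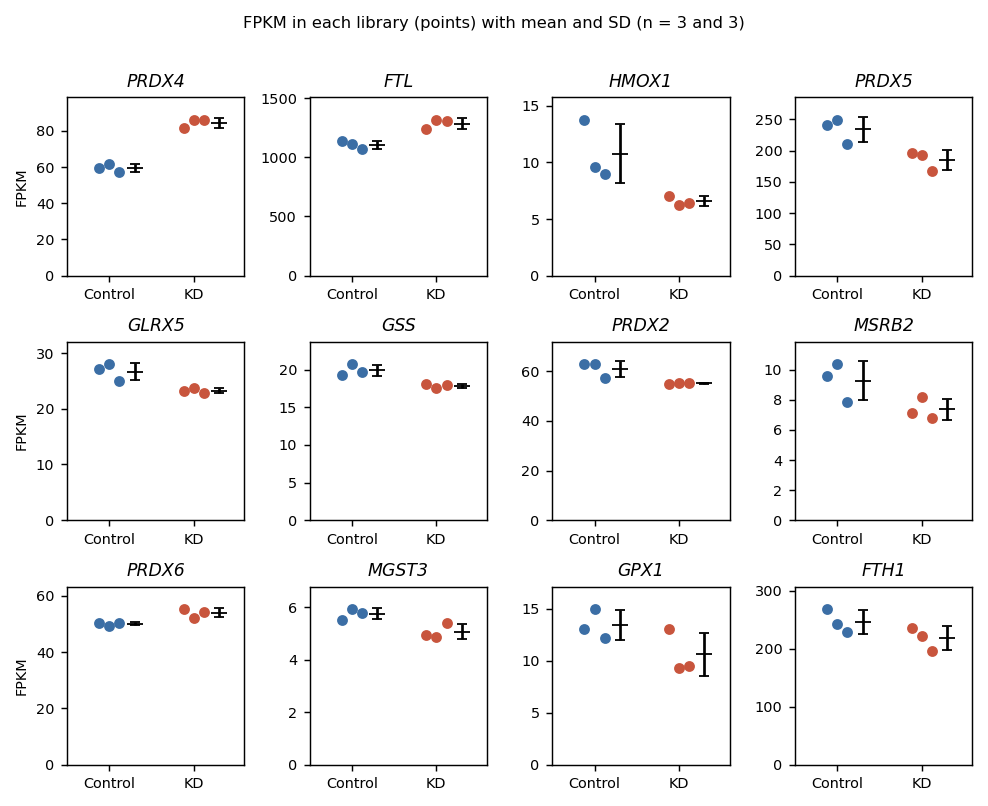
FPKM in each library for the 11 genes with an unadjusted p under 0.05 and for FTH1, with Control in blue, PRMT1 KD in red and black bars for mean and SD (n = 3 each), all axes starting at 0. PRDX4 and FTL are higher in every PRMT1 KD library, HMOX1 and PRDX5 are lower in every one, and Control replicate 1 is the highest HMOX1 library at 13.8 FPKM.

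The superoxide dismutases and catalase, the first line of the relay, showed no call. SOD1, the cytosolic enzyme, was at 87.2 to 93.1 FPKM in Control and 91.1 to 92.8 FPKM in PRMT1 KD, with a 95% interval for the log2 fold change of -0.072 to 0.12. SOD2, the mitochondrial enzyme, was at 3.00 to 3.50 FPKM against 3.06 to 3.12 FPKM, with an interval of -0.23 to 0.12. WTAP overlaps SOD2 on the opposite strand with a mean of 1139 reads beside 834 for SOD2, and whether the authors counted by strand is not given in the sources used here. Catalase (CAT), the peroxisomal enzyme, was at 13.1, 12.9 and 12.1 FPKM in Control and 12.0, 11.5 and 12.0 FPKM in PRMT1 KD. Each PRMT1 KD library lay under each Control library, by a log2 fold change of -0.093 with an adjusted p of 0.387 in limma.

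The glutathione peroxidases tested were the selenoproteins GPX1 and GPX4. GPX1 (ENSG00000233276, chr3:49357171-49358600, minus strand), the main cytosolic enzyme, was at 13.0, 15.0 and 12.2 FPKM in Control. In PRMT1 KD it was at 13.0, 9.33 and 9.50 FPKM, so that replicate 1 lay within the Control range and the other 2 below it. The log2 fold change was -0.32 (95% interval -0.63 to -0.0093) with an adjusted p of 0.243 in limma, on 192 to 346 reads per library. The GPX1 pseudogenes held 11.9% of the reads of the gene and its pseudogenes together, so reads may be split among near-identical copies. GPX4, which reduces lipid peroxides in membranes, was at 64.4 to 76.7 FPKM in Control and 69.0 to 74.7 FPKM in PRMT1 KD, with an interval of -0.14 to 0.19.

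The thioredoxin system had 4 genes tested and none with an unadjusted p under 0.05. Thioredoxin (TXN) was at 198 to 210 FPKM in Control and 193 to 225 FPKM in PRMT1 KD, with a 95% interval for the log2 fold change of -0.10 to 0.19. TXN2, its mitochondrial counterpart, was at 39.0, 39.5 and 37.2 FPKM against 34.4, 34.7 and 37.3 FPKM, with an interval of -0.24 to 0.00012. Thioredoxin reductase 1 (TXNRD1), a selenoprotein and NRF2 target that recharges thioredoxin with NADPH, was at 20.2, 21.4 and 21.0 FPKM in Control and 20.9, 22.2 and 23.0 FPKM in PRMT1 KD. The groups overlapped, with an interval of -0.051 to 0.20 and an adjusted p of 0.491 in limma. RPL18AP3, on the same strand within TXNRD1, had a mean of 1481 reads beside 2283 for TXNRD1, so reads could be divided between them. TXNRD2, the mitochondrial reductase, was at 3.36 to 3.86 FPKM and 3.28 to 3.72 FPKM, with an interval of -0.18 to 0.19.

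Among the glutaredoxins, which use glutathione to reduce mixed disulfides or carry iron-sulfur clusters, 2 of 3 tested separated the groups, beside 25.9% of all genes tested. GLRX5, a mitochondrial protein of iron-sulfur cluster assembly, was at 27.1, 28.0 and 24.9 FPKM in Control and 23.2, 23.8 and 22.8 FPKM in PRMT1 KD. It was lower in each PRMT1 KD library, with a log2 fold change of -0.19 (95% interval -0.32 to -0.060) and an adjusted p of 0.126 in limma. GLRX3, a cytosolic protein that also handles iron-sulfur clusters, was at 8.25, 8.91 and 8.925 FPKM against 9.04, 8.929 and 10.8 FPKM, so that the highest Control library lay just under the lowest PRMT1 KD library. Its log2 fold change of 0.12 had an adjusted p of 0.448 in limma, and without PRMT1 KD replicate 3 it was 0.043. The mitochondrial GLRX2 was at 3.31 to 3.80 FPKM and 2.90 to 3.59 FPKM, with an interval of -0.33 to 0.088.

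Glutathione is made by glutamate-cysteine ligase and then glutathione synthetase, and glutathione reductase restores it from its oxidised form. GCLC, the catalytic subunit of the ligase, was at 2.49, 2.42 and 2.54 FPKM in Control and 2.47, 2.86 and 2.98 FPKM in PRMT1 KD. GCLM, its modifier subunit, was at 6.18, 6.69 and 7.40 FPKM against 6.53, 7.68 and 7.17 FPKM. The ligase subunits are textbook NRF2 targets, and for both the groups overlapped, with 95% intervals of -0.085 to 0.31 for GCLC and -0.13 to 0.26 for GCLM and adjusted p of 0.501 and 0.703 in limma. Glutathione synthetase (GSS) was at 19.3, 20.7 and 19.7 FPKM in Control and 18.0, 17.6 and 17.9 FPKM in PRMT1 KD, lower in each PRMT1 KD library. Its log2 fold change was -0.15 (95% interval -0.26 to -0.038) with an adjusted p of 0.148 in limma. Glutathione reductase (GSR) was at 26.5, 28.4 and 26.8 FPKM against 25.1, 25.7 and 25.6 FPKM. These groups did not overlap either, with a log2 fold change of -0.094 and an adjusted p of 0.312 in limma.

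The 3 glutathione transferases tested, which attach glutathione to electrophiles, all had log2 fold changes below 0. MGST3, a membrane-bound enzyme of the endoplasmic reticulum, was at 5.53, 5.94 and 5.80 FPKM in Control and 4.96, 4.88 and 5.38 FPKM in PRMT1 KD. The groups did not overlap, and the log2 fold change of -0.15 had an adjusted p of 0.235 in limma. GSTK1, the mitochondrial and peroxisomal enzyme, was at 14.5 to 16.5 FPKM against 13.4 to 15.3 FPKM, with a 95% interval of -0.32 to 0.025. MGST2 was at 3.02 to 3.62 FPKM against 2.53 to 3.38 FPKM, with an interval of -0.39 to 0.10.

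Heme oxygenase 1 (HMOX1, ENSG00000100292, chr22:35380361-35394214, plus strand) breaks down heme to biliverdin, iron and carbon monoxide, and is induced through NRF2 when the repressor BACH1 lets go. It had the most negative log2 fold change of the 33 genes. HMOX1 was at 13.8, 9.59 and 8.96 FPKM in Control and 7.08, 6.24 and 6.39 FPKM in PRMT1 KD. Control replicate 1 stood above the other Control libraries, yet the groups did not overlap, and PRMT1 KD was at 60.9% of Control (10.8 ± 2.62 against 6.57 ± 0.447 FPKM, SD, n = 3 each). The log2 fold change of -0.62 (SE 0.146, 95% interval -0.96 to -0.27) had an unadjusted p of 0.00393 and an adjusted p of 0.0861 in limma. Without Control replicate 1 it was -0.44 with an adjusted p of 0.144, whereas voom on the reads gave an adjusted p of 0.00861 and a filter at a mean of 5 FPKM 0.0397. HMOX2, the constitutive heme oxygenase, was at 6.67, 6.67 and 5.14 FPKM against 5.46, 5.26 and 4.98 FPKM, with an interval of -0.43 to 0.041. The quinone reductase NQO2 was at 2.44, 2.49 and 2.49 FPKM in Control and 2.37, 2.13 and 2.05 FPKM in PRMT1 KD, lower in each PRMT1 KD library by a log2 fold change of -0.13 with an adjusted p of 0.438 in limma.

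For the regulators themselves the groups overlapped. NFE2L2 (ENSG00000116044, chr2:177227595-177392697, minus strand) was at 9.42, 8.61 and 9.92 FPKM in Control and 10.4, 9.58 and 11.1 FPKM in PRMT1 KD. Its groups overlapped, with a log2 fold change of 0.14 (95% interval -0.037 to 0.32) and an adjusted p of 0.358 in limma. AGPS overlaps NFE2L2 on the opposite strand with a mean of 1371 reads beside 934 for NFE2L2. KEAP1 was at 23.1, 23.3 and 19.8 FPKM against 21.3, 20.8 and 19.97 FPKM, with an interval of -0.25 to 0.080 and an adjusted p of 0.544 in limma. NRF2 is governed mostly by protein turnover, which these libraries do not measure. Of its textbook targets given above none was called in this limma fit: HMOX1 was lower in each PRMT1 KD library, GCLC, GCLM and TXNRD1 overlapped, and NQO1 was at 1 to 3 reads per library.

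SRXN1 encodes sulfiredoxin, which repairs overoxidised peroxiredoxins and is another NRF2 target. It was at 2.06, 1.91 and 1.70 FPKM in Control and 1.68, 1.83 and 1.46 FPKM in PRMT1 KD, on 60 to 92 reads per library. The groups overlapped, with a 95% interval of -0.37 to 0.12 and an adjusted p of 0.560 in limma. MSRB2, a mitochondrial methionine sulfoxide reductase, was at 9.59, 10.4 and 7.84 FPKM in Control and 7.11, 8.16 and 6.81 FPKM in PRMT1 KD. PRMT1 KD replicate 2 lay above the lowest Control library, and the log2 fold change of -0.29 (95% interval -0.55 to -0.038) had an adjusted p of 0.199 in limma.

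Ferritin stores iron in a form that cannot feed the reaction of iron with peroxide, in shells built of light (FTL) and heavy (FTH1) chains. FTL (ENSG00000087086, chr19:48965301-48966878, plus strand) was at 1139, 1108 and 1070 FPKM in Control and 1235, 1317 and 1302 FPKM in PRMT1 KD. Every PRMT1 KD library was above every Control library, and PRMT1 KD was at 116% of Control (1106 ± 34.3 against 1285 ± 43.4 FPKM, SD, n = 3 each). The log2 fold change of 0.22 (SE 0.0476, 95% interval 0.10 to 0.33) had an unadjusted p of 0.00265 and an adjusted p of 0.0734 in limma. FTH1 (ENSG00000167996, chr11:61959718-61967660, minus strand), the subunit that oxidises iron, was at 269, 243 and 228 FPKM against 236, 223 and 196 FPKM. Its groups overlapped, with an interval of -0.38 to 0.027 and an adjusted p of 0.317 in limma. The ratio of FTL to FTH1, a measure chosen after the values were seen, was 4.24, 4.56 and 4.70 in Control and 5.24, 5.92 and 6.63 in PRMT1 KD. It was higher in each PRMT1 KD library (4.50 ± 0.235 against 5.93 ± 0.695, SD, n = 3 each, exact permutation p = 0.1). FTH1 has 25 pseudogenes by name and FTL 16, whose reads came to means of 80.3 beside 7519 for FTH1 and 48.0 beside 16625 for FTL. Values of 4 further genes are uncertain for the same want of a stated strand setting, since a gene on the opposite strand overlaps each of them. TROVE2 overlaps GLRX2 with a mean of 1100 reads, NMRAL1 overlaps HMOX2 with 510, BEST1 overlaps FTH1 with 316 and SNHG10 overlaps GLRX5 with 112.

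The redox genes outside the 40 were taken from lists of related pathways, of which 126 were found and 90 tested. Of the 90 genes, 1 was called, lower, or 1.11% beside the 2.05% of all genes given above. This gene was SELENOS, a selenoprotein of the endoplasmic reticulum membrane that takes part in the removal of misfolded proteins, and it fell. SELENOS was at 15.2, 16.1 and 15.3 FPKM in Control and 12.0, 10.8 and 11.8 FPKM in PRMT1 KD, or 74.6% of Control. Its log2 fold change was -0.39 (SE 0.0575, 95% interval -0.53 to -0.26) with an adjusted p of 0.0322 in limma. The call was lost when any 1 library was left out, with adjusted p of 0.0697 to 0.141, and in 10 of the 17 alternatives in all.

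The next smallest p values in these lists did not pass. CHAC1, which degrades glutathione, was at 24.9, 26.998 and 23.4 FPKM in Control and 19.8, 20.1 and 18.3 FPKM in PRMT1 KD, with a limma adjusted p of 0.0510. NCF4, a subunit of the phagocyte NADPH oxidase, was at 12.9, 13.8 and 11.7 FPKM against 9.57, 10.1 and 8.51 FPKM, with a limma adjusted p of 0.0586. ERO1A, the oxidase that makes disulfides and peroxide in the endoplasmic reticulum, was at 7.53, 6.88 and 7.44 FPKM against 8.69, 9.45 and 9.18 FPKM, with a limma adjusted p of 0.0629. NADK, which makes the precursor of NADPH, was at 23.4, 24.3 and 22.8 FPKM against 19.4, 20.3 and 20.5 FPKM, with a limma adjusted p of 0.0715. For each of these 4 genes the libraries of the groups did not overlap, with ERO1A higher and the others lower in PRMT1 KD. At an unadjusted p under 0.05 there were 24 of the 90 genes, 6 higher and 18 lower, or 26.7% beside 19.5% of all genes tested (10.1% higher and 9.47% lower). Unadjusted calls came to 7 of 23 for other antioxidant and redox enzymes, 2 of 14 for NRF2 regulators and partners, 6 of 19 for NADPH and cystine supply, 4 of 17 for selenoprotein synthesis and other selenoproteins, 3 of 9 for iron handling and 2 of 8 for superoxide and peroxide sources. The medians of these 6 lists ran from -0.083 for NADPH and cystine supply to 0.087 for iron handling, beside -0.094 for the 33 antioxidant genes.

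**Figure D4:**
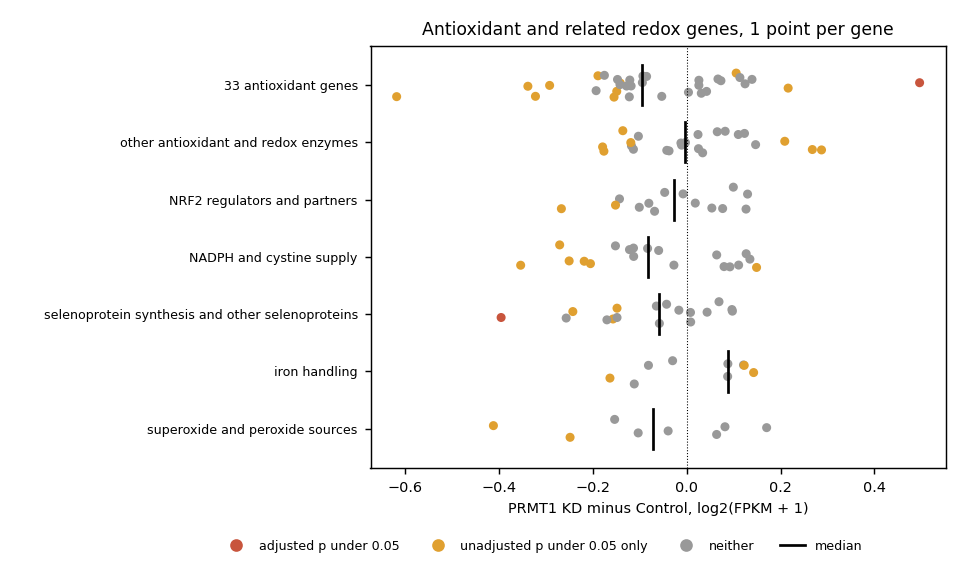
Difference between PRMT1 KD and Control on the log2(FPKM + 1) scale for the 33 antioxidant genes and 90 genes of 6 related lists, 1 point per gene, with the median of each list as a black line and colours for the limma p. The points lie between -0.62 (HMOX1) and 0.50 (PRDX4), and the called genes are PRDX4 and SELENOS.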

How the data were processed

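RNA was extracted from MM.1S cells with TRIzol and libraries were made by standard Illumina protocols per the labels. Each gene's FPKM in each library, with its length, was deposited by the authors. The submitters' processing notes name hg38 and featureCounts 1.5.0-p3, and the aligner, annotation release and strand setting are not given in the sources used here. The library sizes the authors divided by were 14396891 to 16560449, which are not the read totals, so the values include a scaling between libraries. FPKM multiplied by length came out as whole multiples of 1 step per library for 100% of values (tolerance 0.001), which gave the reads quoted.

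Groups and replicate numbers came from the sample titles. The deposited FPKM were put on the log2(FPKM + 1) scale. The fit was made with limma (version 3.58.1, under R 4.3.3), using moderated variances with a trend, two-sided tests and no block, over 13585 genes with a mean of at least 1 FPKM, with Benjamini-Hochberg adjustment over all of them. Nothing in the labels says that replicates came from separate cultures, so p-values measure the spread between these libraries. The scripts were tested on simulated data. The members and related lists were chosen with earlier results of these data known. Values by library are given for genes with an unadjusted p under 0.05 or groups that did not overlap and for the NRF2 pair and its targets, and of the related lists for the 5 smallest p. The alternatives, 17 in number, covered pseudocount, filter, scaling, model, pseudogene reads, replicate block and each library left out.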

Additional observations from a re-analysis of the deposited data

How the results depend on the processing

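The main values were 279 genes called in all, 1 of the 40 antioxidant genes called and 11 at an unadjusted p under 0.05, and 1 related redox gene called. Without the filter on low genes 35 genes and 0 related redox genes were called, and with a minimum mean of 5 FPKM 473 genes, 4 antioxidant genes (FTL, HMOX1, PRDX4 and PRDX5) and 6 related genes. Quantile normalization gave 2 antioxidant genes (FTL and PRDX4) and 4 related genes, and TPM scaling 2 (FTL and PRDX4) and 2. Without the trend there were 43 genes and 0 related genes, with an ordinary linear model 12 genes, 0 antioxidant genes and 0 related genes, and with voom on the reads 927 genes, 4 antioxidant genes (the same as at 5 FPKM) and 9 related genes. The same-numbered libraries of the groups correlated in their deviations by 0.0200, 0.0631 and 0.101. Differently numbered libraries correlated by -0.0751 to 0.0186, below each of these. The study names unpaired tests, so the main fit has no block, and whether the numbers pair the samples is not settled. A replicate block in limma gave 2 antioxidant genes (PRDX4 and PRDX5, adjusted p 0.0437), 2 related genes and 204 genes in all. SELENOS was not called under the block (adjusted p 0.0577), without the trend (0.0664), with the ordinary linear model (0.0945) or without the filter (0.0863). Leaving out 1 library at a time gave 13 to 94 genes, 0 to 1 antioxidant genes, 5 to 14 antioxidant genes at an unadjusted p under 0.05, and 0 related genes each time. Called genes were split into 145 higher and 134 lower, into 222 and 133 with TPM scaling, and into 82 and 139 with median scaling.

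PRDX4 kept a log2 fold change of 0.47 to 0.52 over the 17 alternatives, with adjusted p of 0.00011 to 0.0931 and under 0.05 in 14. FTL had an adjusted p of 0.0149 to 0.463, under 0.05 in 4, HMOX1 of 0.00861 to 0.230, under 0.05 in 2, and PRDX5 of 0.0121 to 0.285, under 0.05 in 3. None of the 21 antioxidant and 5 related genes rerun changed direction in any alternative, the PRMT1 log2 fold change ran from -2.21 to -2.09, and the median of the antioxidant genes from -0.13 to -0.061. The causes of these changes were not tested. SRXN1, on 60 to 92 reads per library, was the lowest of the 33 antioxidant genes tested, with a 95% interval of -0.37 to 0.12.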

Other observations

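The antioxidant genes were also grouped by the compartment of their protein, a grouping made after the values were seen and given with no test. Of 8 mitochondrial genes tested (SOD2, PRDX3, TXN2, TXNRD2, GLRX2, GLRX5, GSTK1 and MSRB2), 6 had log2 fold changes below 0 (75.0%, beside 47.4% of all genes tested), with a median of -0.12 and a range of -0.29 to 0.031. Of 17 genes of the cytosol or nucleus, 8 were below 0 (47.1%), with a median of 0.026. GSTK1, also found in peroxisomes, was counted as mitochondrial, while PRDX5 (-0.34) and GPX4 (0.026) were set apart as genes of several compartments. CAT, at -0.093, was counted as peroxisomal. The 5 genes of the endoplasmic reticulum held both the highest and the lowest value, PRDX4 at 0.50 and HMOX1 at -0.62, with the other 3 (HMOX2, MGST2 and MGST3) between -0.19 and -0.14.

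Summed over the 40 genes, the antioxidant transcripts came to 2451 ± 96.7 FPKM in Control and 2564 ± 43.6 FPKM in PRMT1 KD (SD, n = 3 each, exact permutation p = 0.2). Without ferritin the sums were 1099 ± 49.7 and 1061 ± 9.47 FPKM (exact permutation p = 0.4).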
